A study of Mus musculus with 24 samples.

Results

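The response to Kdo2 lipid A (KLA) after 12 h was compared between macrophages elicited into the mouse peritoneum (EPM) and macrophages grown from bone marrow (BMDM). The members were all genes of 8 samples out of 24, and 17347 genes that passed the filter on dim probes were tested. For each gene the quantity of interest was the difference of changes, the log2 change with KLA in EPM minus the log2 change with KLA in BMDM. It is above 0 where EPM responded with the larger increase or the smaller decrease, and below 0 where BMDM did. All cells came from C57BL/6 mice. EPM were lavaged from the peritoneum 3 days after thioglycollate was injected and were kept overnight in DMEM with fetal calf serum. By the study's methods, non-adherent cells were then washed off, and treatment began a day after fresh medium was applied. BMDM were grown from marrow for 6 to 8 days with 30% L-cell conditioned medium as a source of the growth factor M-CSF, and were then kept in RPMI 1640 with 10 ng/ml M-CSF. Both were treated for 12 h with DMSO, the solvent control, or with KLA, whose dose is not given in the sources used here. The 4 conditions were EPM DMSO, EPM KLA, BMDM DMSO and BMDM KLA, with n = 2 replicates each. The labels call the replicates biological, while the study's methods speak of triplicates for its expression arrays.

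KLA is a pure form of the lipid A part of endotoxin and is sensed by the receptor TLR4. Through the adaptor MyD88 the receptor activates NF-kappaB and cytokine genes such as Tnf, and through the adaptor TRIF it activates IRF3 and the gene of interferon beta. Secreted interferon then acts back on the macrophage through its receptor and turns on the antiviral genes, so that a late response is the sum of direct and secondary steps. BMDM in M-CSF divide in culture, whereas elicited peritoneal macrophages, recruited from blood monocytes, divide little, and M-CSF itself drives macrophages to divide.

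Each condition was 1 two-colour Agilent array, with replicate 1 labelled with Cy5 and replicate 2 with Cy3, and each cell type was 1 slide. Array and condition therefore cannot be told apart, nor can cell type and slide, and the culture medium and M-CSF differed between the cell types as well. The p-values measure only the spread between the 2 channels of the same array. Replicates were correlated across genes with r of 0.9983 to 0.9986, between 58.2% and 62% of probes were well above background in the 8 channels, and no probe was saturated. All 10 macrophage markers of the list were well above background in every channel, among them Emr1, Csf1r and Cd68. The expression of 11 mesothelial and fibroblast markers was well above background for 11 in EPM and for 5 to 6 in BMDM. Their summed intensity was 87830 to 107300 in EPM and 6366 to 7867 in BMDM. The 11 neutrophil markers summed to 2026 to 4730 in EPM and 11380 to 28110 in BMDM. Fewer cells of a type and less RNA per cell cannot be told apart in such samples.

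The late response differed between EPM and BMDM in 8291 of 17335 genes with an estimate, 47.8% of those tested (limma, adjusted p under 0.05). The difference was above 0 in 4020 genes (23.2%) and below 0 in 4271 genes (24.6%). It reached 2-fold in 1390 genes (8.02%), of which 828 lay above 0 (4.78%) and 562 below 0 (3.24%). The median over all genes was -0.03 on the log2 scale and the median standard error of a difference was 0.11. Both dyes gave the same sign in 1387 of the 1390 genes. The choice of genes favoured this, since the p-values rest on the spread between channels, and it is no further evidence. When array means were taken as samples and the earlier and later control arrays of a cell type as replicates, 107 genes passed, and the counts below are to be read with this limit. The balance of directions rested on the normalization between arrays: without it the calls above 0 made up 76.6% in place of 48.5%, and the median difference was 0.17 in place of -0.03.

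The changes of the 2 cell types with KLA share no channel and were correlated across genes with r = 0.74, a description of genes that are not independent replicates. In EPM, 19.6% of genes rose and 34.3% fell, and 4.81% rose and 4.6% fell by 2-fold or more. In BMDM, 28.6% rose and 36.3% fell, and 6.26% rose and 9.04% fell by 2-fold or more. Falls of 2-fold or more numbered 1568 in BMDM and 798 in EPM.

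**Figure D1:**
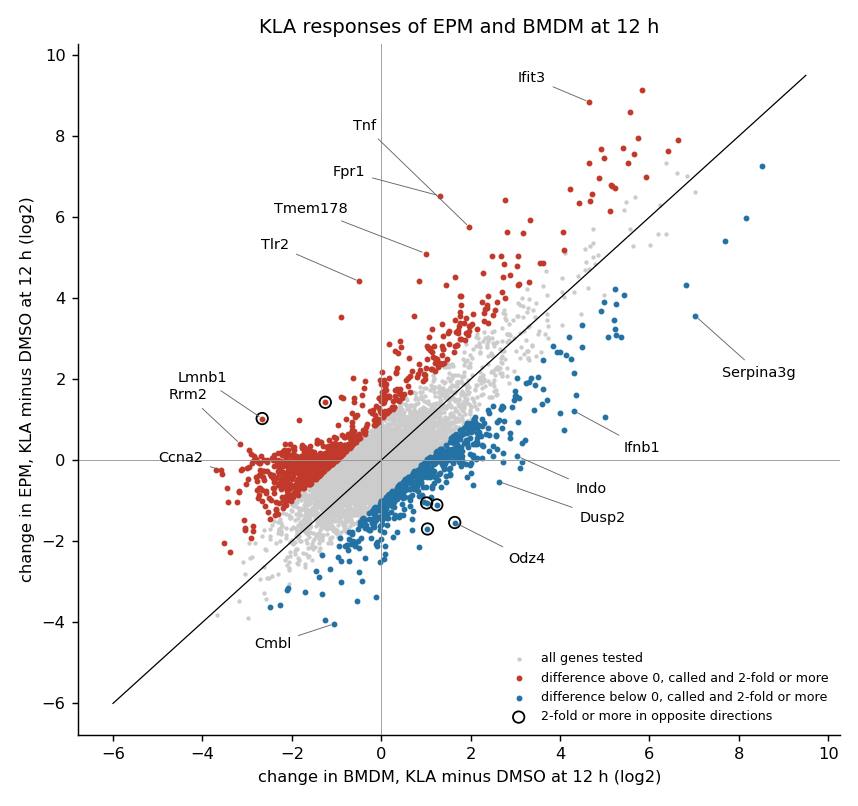
Log2 change with KLA after 12 h in BMDM (horizontal axis) and EPM (vertical axis) for each gene tested, with the line of equal change. Red and blue points are the 828 and 562 genes whose change differed by 2-fold or more above and below 0, and circles mark the 6 genes that moved 2-fold or more in opposite directions. Ifit3, Tnf, Tlr2 and Fpr1 lie far above the line, and Indo, Dusp2 and Ifnb1 far below it.

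A difference of changes can come from the control level, from the level reached with KLA, or from both. The control level in DMSO was higher in EPM for 27.2% of genes and lower for 29.8% (6.11% and 5.67% at 2-fold or more). The KLA level was higher in EPM for 30.8% and lower for 34% (7.18% and 5.26% at 2-fold or more). These levels share their channels with the difference of changes, so the classes that follow sort the 1390 genes and are no further evidence of a difference. In 492 of them (35.4%) only the control level differed by 2-fold or more, and 357 of these lay above 0. In 420 (30.2%) only the KLA level differed, with 207 above 0 and 213 below. Both levels differed in the same direction in 161 genes (11.6%), the sign turned between control and KLA in 22 (1.58%), and in 295 (21.2%) neither level alone reached 2-fold.

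The classes were made of different movements. In what follows, genes called level missed the 2-fold threshold or the test and need not be equal. Of the 357 genes that were lower in control EPM and level after KLA, 230 fell 2-fold or more in BMDM and not in EPM, 79 rose in both and 20 rose in EPM alone. Of the 213 genes that were level in control and lower in EPM after KLA, 127 rose 2-fold or more in BMDM and not in EPM, and 28 rose in both. Of the 207 genes that were level in control and higher in EPM after KLA, 110 fell in BMDM and not in EPM, and 52 rose in EPM and not in BMDM. The 135 genes with a higher control level in EPM included 55 that fell in EPM and not in BMDM, and 31 that rose in BMDM and not in EPM. Falls in BMDM thus made up the larger group on the side above 0 in both classes, and rises in BMDM the larger group among genes with a lower KLA level in EPM.

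**Figure D2:**
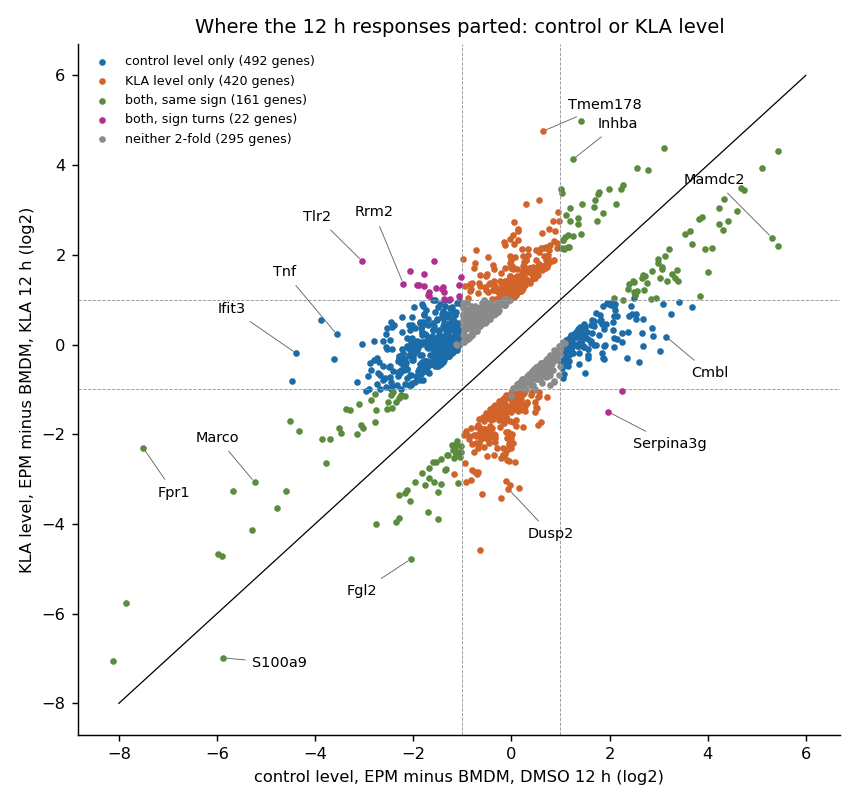
Difference of levels between EPM and BMDM in DMSO (horizontal axis) and in KLA (vertical axis), log2, for the 1390 genes whose late response differed by 2-fold or more. Colours are the classes, dashed lines mark 2-fold, and the solid line marks equal differences. Ifit3 and Tnf lie left of the 2-fold line near 0 on the vertical axis, Tmem178 lies near 0 on the horizontal axis, and Tlr2 and Rrm2 lie left of 0 and above 0.

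The control levels could be read a further time on other arrays, with untreated EPM and BMDM given DMSO for 1 h, where 5.42% of genes were 2-fold or more higher in EPM and 5.07% lower. Of the 357 genes that were lower in EPM at 12 h in the control class, 350 had the same sign on these arrays and 264 (73.9%) were again 2-fold or more lower. Of the 135 higher genes, 125 had the same sign, 87 (64.4%) were again 2-fold or more higher, and 3 were called in the other direction. The other arrays lie on the same slides, 1 per cell type.

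Among the inflammatory cytokines, 6 of 23 differed above 0 and 12 below 0, against 23.2% and 24.6% of all genes, with a median of -0.39 against -0.03 over all genes. The median was -0.11 without normalization between arrays, -0.21 with the deposited values and -0.08 over the 8 genes detected in all 8 channels. Tnf, the first cytokine of the endotoxin response, had control levels of 8.37 and 8.48 in EPM and 11.92 and 12.04 in BMDM on the log2 scale. With KLA it reached 14.11 and 14.25 in EPM and 13.93 and 13.98 in BMDM. Control channels of the 2 cell types did not overlap and lay far apart, while the KLA channels lay close together. The change was 54-fold in EPM and 3.93-fold in BMDM, a difference of changes of 3.78 (standard error 0.11, limma adjusted p = 2.01e-14), and control EPM were 11.8-fold lower. The probe lies at chr17:34807902-34807961 of mm8.

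Il1b, the secreted pyrogen made by activated macrophages, was of the same kind. Its control values were 6.19 and 6.19 in EPM, where it was not well above background, and 8.91 and 8.91 in BMDM, and its KLA values were 13.27 and 13.05 in EPM and 13.84 and 13.74 in BMDM. Control EPM were thus at the bottom of the range and BMDM above it, while both cell types came within 1.55-fold of each other with KLA. The difference of changes was at least 2.09 on the log2 scale (limma adjusted p = 1.21e-10), since the EPM control gives only a bound.

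Of the other cytokines that differed by 2-fold or more, 6 parted at the KLA level and 1, Il10, at both levels. Il12a, which codes for the p35 subunit of interleukin 12, was within 1.03-fold in control, at 6.25 and 6.27 in EPM and 6.22 and 6.19 in BMDM, with 1 of 2 EPM channels well above background. With KLA it reached 9.07 and 9.18 in EPM but only 6.38 and 6.39 in BMDM, a difference of changes of 2.69 (standard error 0.10). Il12b, the gene of the p40 subunit that pairs with p35, went the other way: it was not well above background in either control, and KLA brought it to 8.13 and 8.10 in EPM and to 10.49 and 10.15 in BMDM. The KLA level of Il12b was 4.62-fold lower in EPM, so that the subunits of this cytokine stood in opposite order.

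Ifnb1, the gene of interferon beta, was not well above background in either EPM control channel, and was so in 1 of 2 BMDM control channels. With KLA its values were 7.47 and 7.21 in EPM and 10.53 and 10.39 in BMDM. The BMDM channels stood well above those of EPM, by 8.7-fold, and the difference of changes was -3.10 (limma adjusted p = 3.58e-12). As the undetected EPM control could hide a larger EPM change, this value is no bound. Il6 was also higher in BMDM with KLA, at 11.30 and 11.24 against 10.00 and 9.99 in EPM. Il10, the anti-inflammatory cytokine, was higher in BMDM at both levels, at 8.55 and 8.47 in control and 11.45 and 11.44 with KLA, against 7.52 and 7.45 in EPM with KLA. Csf3 and Il1f9 completed the group, with differences of -1.30 and -1.12 that are no bounds either. Outside it, Il1rn, Osm, Il23a, Il33 and Il15 did not pass the test, with differences between -0.24 and 0.09. Members outside the naming rule (Il12b, Ifnb1, Il10, Csf3, Il1f9 and the last 5) were chosen after their values were seen.

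**Figure D3:**
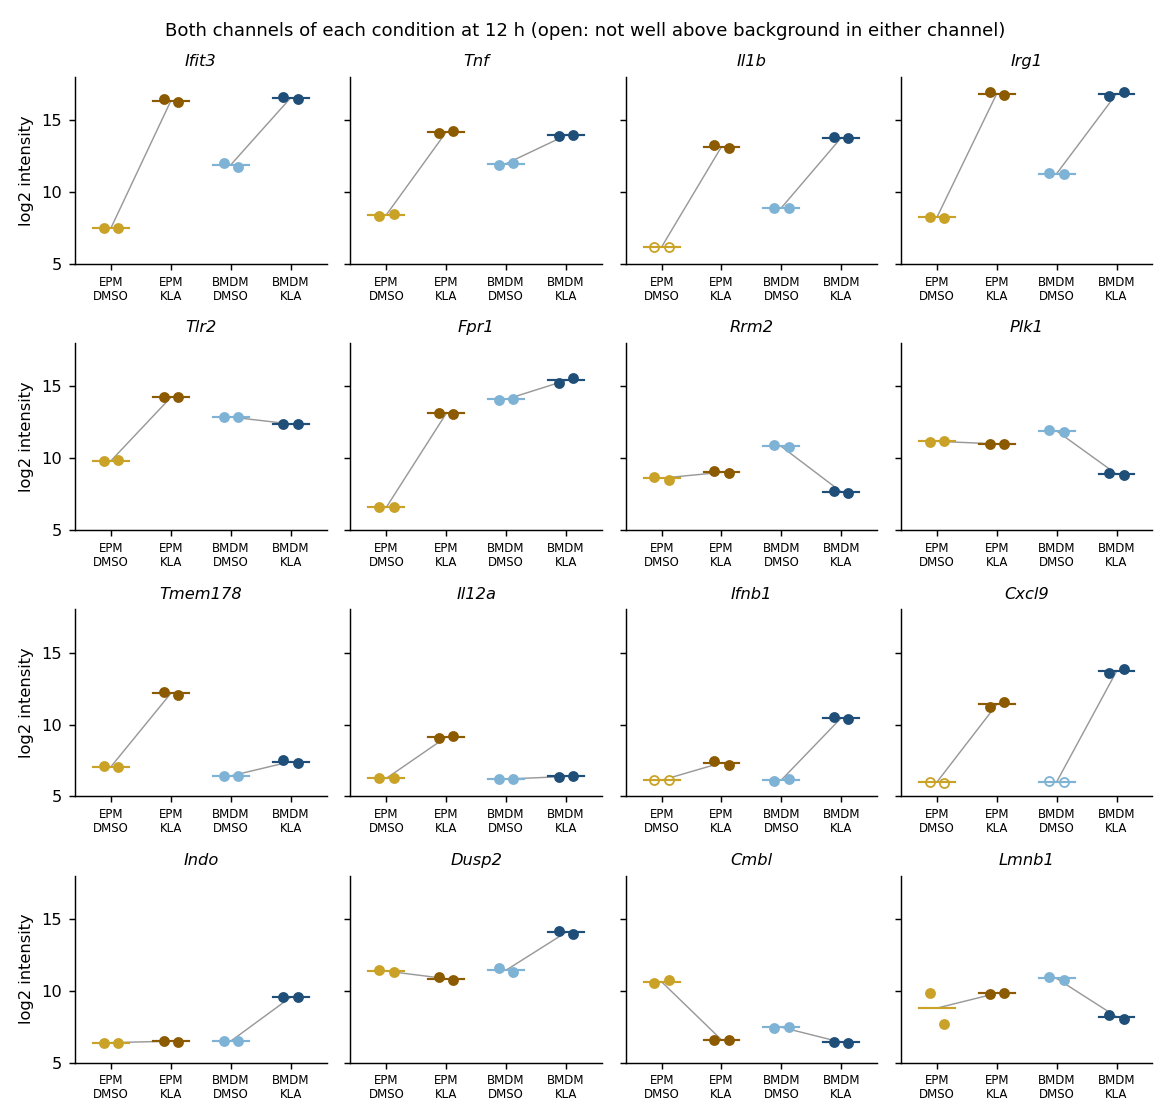
Log2 intensity of 16 genes in both channels (points, Cy5 left) of the 4 conditions, with the mean as a bar and a grey line from DMSO to KLA in each cell type; open points mark conditions not well above background in either channel. Ifit3, Tnf, Il1b and Irg1 part in control and meet with KLA, and Il12a and Tmem178 rise more in EPM than in BMDM. Ifnb1, Cxcl9, Indo and Dusp2 end higher in BMDM, and Rrm2 and Plk1 drop in BMDM.

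Chemokines split within both families. Of 13 CXC chemokines, 7 differed above 0 and 4 below 0, with a median of 0.75 (0.49 with the deposited values). Of 14 CC chemokines, 6 differed above 0 and 5 below 0 (9 and 2 without normalization between arrays), with a median of 0.26, against 23.2% above and 24.6% below of all genes. Cxcl1, Cxcl2 and Cxcl5, which attract neutrophils, differed by 1.34, 1.69 and 1.84, the last with no bound because its BMDM control was not well above background. Cxcl9 and Cxcl11, T cell attractants that interferons induce, were lower in EPM with KLA. Cxcl9 was not well above background in either control and reached 11.23 and 11.56 in EPM and 13.57 and 13.84 in BMDM with KLA. The increase was at least 40.6-fold in EPM and at least 203-fold in BMDM, and the KLA level was 4.94-fold lower in EPM. Cxcl11 ended 5.94-fold lower in EPM with KLA, at 10.36 and 10.10 against 12.93 and 12.67. Cxcl10, a relative of both, was ordered differently: its KLA values of 16.11 and 15.77 in EPM and 16.14 and 16.17 in BMDM lay within 1.16-fold, its control was 2.78-fold lower in EPM, and its difference was 1.26.

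The largest differences among CC chemokines were those of Ccl9 at 2.0, Ccl3 at 1.48 and Ccl5 at -2.18. Ccl3, a monocyte attractant, had control values of 11.20 and 11.08 in EPM and 13.72 and 13.49 in BMDM. Ccl5, the T cell and monocyte attractant RANTES, was ordered the other way, at 11.08 and 11.47 in control EPM and 9.31 and 9.48 in control BMDM, and reached 17.20 and 17.30 in EPM and 17.54 and 17.58 in BMDM. Both parted at the control level, and with KLA the 2 cell types lay within 2-fold of each other for Ccl3 and Ccl5. Cxcl1, Cxcl5, Cxcl9 and Cxcl11 were named after their values were seen.

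Receptors of bacterial products gave the largest differences among the named genes. Fpr1, the receptor of formylated bacterial peptides, had control values of 6.58 and 6.61 in EPM and 14.08 and 14.12 in BMDM. With KLA it reached 13.16 and 13.08 in EPM and 15.25 and 15.58 in BMDM. EPM went from near the bottom of the range to a high level, while BMDM began high and stayed above EPM throughout. The changes were 92.1-fold and 2.49-fold, the difference was 5.21 (standard error 0.12, limma adjusted p = 2.18e-15), and control EPM were 182-fold lower. Its relative Fpr-rs2, now Fpr2, gave a difference of at least 3.67, with the EPM control not well above background. Neutrophil markers were also higher in BMDM, 5 of 11 by 2-fold or more in control and 6 with KLA, against 5.67% and 5.26% of all genes. Their part in this result was not tested.

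Tlr2, the receptor of bacterial lipopeptides, turned its order. Its control values were 9.80 and 9.87 in EPM and 12.88 and 12.87 in BMDM, and its KLA values were 14.25 and 14.24 in EPM and 12.40 and 12.38 in BMDM. It was 8.23-fold lower in EPM before KLA and 3.62-fold higher after it, with no overlap of channels in either state. Tlr2 rose 21.3-fold in EPM and fell by 0.49 on the log2 scale in BMDM (limma adjusted p = 1.2e-07), a difference of 4.90 (standard error 0.07). Of 9 other Toll-like receptor genes tested as a list, Tlr2 included, 3 differed above 0 and 4 below 0, against 23.2% and 24.6% of all genes. The counts were 4 and 3 without normalization between arrays. Tlr8, a receptor of RNA, was the lowest at -1.29.

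Marco, a scavenger receptor that binds bacteria, rose 4.56-fold in EPM from 11.28 and 11.16 to 13.43 and 13.40. In BMDM it stood at 16.50 and 16.40 in control and 16.25 and 16.71 with KLA, a change of 0.03 that did not pass the test (limma adjusted p = 0.86). Ly6c, an antigen of inflammatory monocytes, also stayed higher in BMDM at both levels, with changes of 5.63 in EPM and 2.82 in BMDM on the log2 scale. Of 25 scavenger and surface receptors, 12 differed above 0 and 11 below 0 (12 and 7 without normalization between arrays), against 23.2% and 24.6% of all genes. Their median of 0.07 turned to -0.21 with processed signals, -0.22 with the deposited values and -0.09 over the genes detected in all 8 channels. The inhibitory Fc receptor Fcgr2b (-2.20) and the integrin Itgam (-1.44) were the lowest of that list. The TLR4 receptor and its adaptors gave 5 above 0, 5 below 0 and 8 not called of 18, against 23.2% above and 24.6% below of all genes, with a median of 0.00. Without normalization between arrays 12 of the 18 lay above 0 and 3 below, with a median of 0.31.

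The interferon-stimulated genes were the largest list with a shared direction. Of 47 tested, 42 differed above 0 and 2 below 0, against 23.2% and 24.6% of all genes. By 2-fold or more 28 differed above 0, against 4.78% of all genes. The median difference was 1.17, with a median change of 3.83 in EPM and 2.70 in BMDM. All 47 rose 2-fold or more in EPM and 44 did so in BMDM, where 4.81% and 6.26% of all genes did. The median level of the list was 9.33 and 9.40 in control EPM and 10.99 and 10.73 in control BMDM, and 14.05 and 14.21 in EPM and 14.52 and 14.54 in BMDM with KLA. Control EPM were 2-fold or more lower for 31 of the 47, where 5.67% of all genes were. The KLA levels lay within 2-fold for 46, and among all genes 7.18% were 2-fold or more higher in EPM and 5.26% lower. At any fold, 23 of the 47 were lower in EPM with KLA and 3 higher, against 34% and 30.8% of all genes. The median difference of levels was accordingly -1.50 in control, -1.15 on the earlier control arrays and -0.20 with KLA. The median difference of changes stayed above 0 under every alternative that was run, between 0.85 with the mean of probes and 1.46 without normalization between arrays. With array means as samples only 1 of the 47 was called.

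Ifit3, an antiviral protein that interferon induces, had control values of 7.50 and 7.54 in EPM and 12.02 and 11.78 in BMDM. With KLA it stood at 16.46 and 16.26 in EPM and at 16.64 and 16.47 in BMDM. The controls were far apart and the KLA channels lay close together, within 1.15-fold. The change was 458-fold in EPM and 25.2-fold in BMDM, the difference was 4.18 (standard error 0.15, limma adjusted p = 2.36e-13), and a second probe of the gene gave 1.98. Rtp4, a chaperone of membrane receptors that interferon induces, differed by 2.87, with control EPM 6.92-fold lower and KLA levels within 1.06-fold.

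Ifit1, Mx1 and Bst2, antiviral genes chosen after their values were seen, repeated the pattern with differences of 2.46, 1.61 and 2.10. The exceptions included Ifi205, with a difference of -0.38, and Phf11, Oasl1 and Lgals3bp, which did not pass the test. Isg20, an exonuclease of viral RNA, was nearly equal in both, with changes of 7.08 and 6.62 and a difference of 0.47 (standard error 0.09).

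The interferon-stimulated response element is the short DNA motif that interferon-activated factors and the IRF factors bind, and the promoter of Ifit3 is shown because this gene parted most in the list. Socs1, a feedback inhibitor of interferon signalling that parted at the KLA level instead, is shown beside it. The windows run from 250 bases before to 50 after the RefSeq start on GRCm38.p6, and capitals mark matches to TTTCNNTTTC on either strand, which overlap each other in Socs1. Ifit3 lies at chr19:34583279-34583578 on the plus strand and holds 2 matches, which begin 156 and 122 bases before the start. Socs1 lies at chr16:10785487-10785786 on the minus strand and also holds 2, at 83 and 77 bases before the start.
Ifit3: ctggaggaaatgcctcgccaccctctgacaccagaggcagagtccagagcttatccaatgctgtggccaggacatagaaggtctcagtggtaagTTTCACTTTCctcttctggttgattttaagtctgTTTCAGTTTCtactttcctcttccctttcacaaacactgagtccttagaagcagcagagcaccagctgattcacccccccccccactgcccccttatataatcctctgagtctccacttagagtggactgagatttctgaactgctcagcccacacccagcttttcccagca
Socs1: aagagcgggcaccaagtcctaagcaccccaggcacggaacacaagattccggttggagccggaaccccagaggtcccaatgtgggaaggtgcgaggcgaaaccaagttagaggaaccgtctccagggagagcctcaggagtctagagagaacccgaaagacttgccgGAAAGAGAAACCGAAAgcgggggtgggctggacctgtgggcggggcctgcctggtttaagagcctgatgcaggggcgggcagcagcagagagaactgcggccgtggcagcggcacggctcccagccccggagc
The motif was found in 3.44% of all 32851 promoter windows of the table. A match is a description of these letters and no binding site was measured. The table holds a window for 61.3% of the genes tested and for 30 of the 47 interferon-stimulated genes, too few for a share over the list.

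Groups that interferon gamma also induces were counted as lists of their own. Of 15 guanylate-binding and immunity-related GTPases, which attack vacuoles of intracellular microbes, 11 differed above 0 and 1 below 0, against 23.2% and 24.6% of all genes, with a median of 0.82 (1.35 with processed signals). Tgtp had control values of 6.93 and 6.95 in EPM and 9.90 and 9.80 in BMDM and was 1.63-fold lower in EPM with KLA, a difference of 2.20. Of 13 genes of antigen presentation on MHC class I, 7 differed above 0, where 23.2% of all genes did, and 6 did not pass the test, with a median of 0.45. The peptide transporter Tap1 and the immunoproteasome subunit Psmb9 led them, at 1.64 and 1.57, and both were lower in control EPM and level with KLA.

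Indo and Dusp2 belonged to the 213 genes that were level in control and lower in EPM after KLA. Indo, now Ido1, the enzyme that degrades tryptophan, stood at 6.38 and 6.40 in control EPM and 6.47 and 6.52 in control BMDM. With KLA it was 6.52 and 6.45 in EPM and 9.54 and 9.54 in BMDM. All EPM values lay at the BMDM control level, and both BMDM channels with KLA stood clear above. The change was 8.26-fold in BMDM and 1.07-fold in EPM, where it did not pass the test (limma adjusted p = 0.15), and the difference was -2.95 (standard error 0.08). The neighbouring gene Indol1, a relative of the same enzyme, gave -3.20 by its brighter probe and -0.24 by the other. The probes lie at chr8:26049871-26049930 and chr8:25997591-25997650 of mm8.

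Dusp2, a nuclear phosphatase of MAP kinases, had control values of 11.40 and 11.32 in EPM and 11.54 and 11.31 in BMDM, and KLA values of 10.93 and 10.74 in EPM and 14.16 and 13.95 in BMDM. The controls overlapped and the KLA channels did not. It rose 6.19-fold in BMDM and fell by 0.52 on the log2 scale in EPM (limma adjusted p = 0.0007), a difference of -3.15. Fgl2, a secreted immune regulator and prothrombinase, was lower in EPM already in control. It rose 3.07-fold in EPM and 20.4-fold in BMDM and ended 27.6-fold lower in EPM. Serpina3g, a serine protease inhibitor of activated myeloid cells, rose 11.8-fold in EPM and 131-fold in BMDM. It turned its order, from 3.92-fold higher in EPM in control to 2.83-fold lower with KLA, and its difference of -3.47 was the lowest of a named gene.

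Among the genes of matrix remodelling, 5 of 19 differed above 0 and 10 below 0 (8 and 8 without normalization between arrays), against 23.2% and 24.6% of all genes. Their median was -0.43, and -0.14 without normalization between arrays. The collagenase Mmp13 rose in both cell types and ended 7.2-fold lower in EPM, at 12.12 and 12.09 against 15.03 and 14.88. Of 18 genes of JAK-STAT signalling and feedback, 4 differed above 0 and 6 below 0 (5 and 3 without normalization between arrays), against 23.2% and 24.6% of all genes. The feedback inhibitor Socs1 reached 12.50 and 12.50 in EPM and 13.55 and 13.69 in BMDM from controls within 1.07-fold, a difference of -1.22. Cish, a related inhibitor that STAT5 induces, went the other way: it rose 3.46-fold in EPM, fell by 0.38 on the log2 scale in BMDM, and differed by 2.17.

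Genes whose KLA level was higher in EPM were led by Tmem178, a membrane protein of the endoplasmic reticulum. Its values went from 7.12 and 7.03 to 12.27 and 12.08 in EPM and from 6.43 and 6.42 to 7.51 and 7.33 in BMDM. Both cell types rose from levels within 1.57-fold of each other, and EPM ended 27-fold above BMDM. The difference was 4.11 (standard error 0.10, limma adjusted p = 4.94e-15). Inhba, the subunit of activin A, rose 23.1-fold in EPM and 3.15-fold in BMDM and was higher in EPM at both levels. Cd86, a ligand of T cell costimulation, rose 29.1-fold in EPM and 12.3-fold in BMDM from controls within 1.15-fold. Slco4a1, an organic anion transporter, parted mainly in control instead, where it was 14.7-fold lower in EPM. It rose 11.6-fold in EPM and fell by 0.89 on the log2 scale in BMDM.

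**Figure D4:**
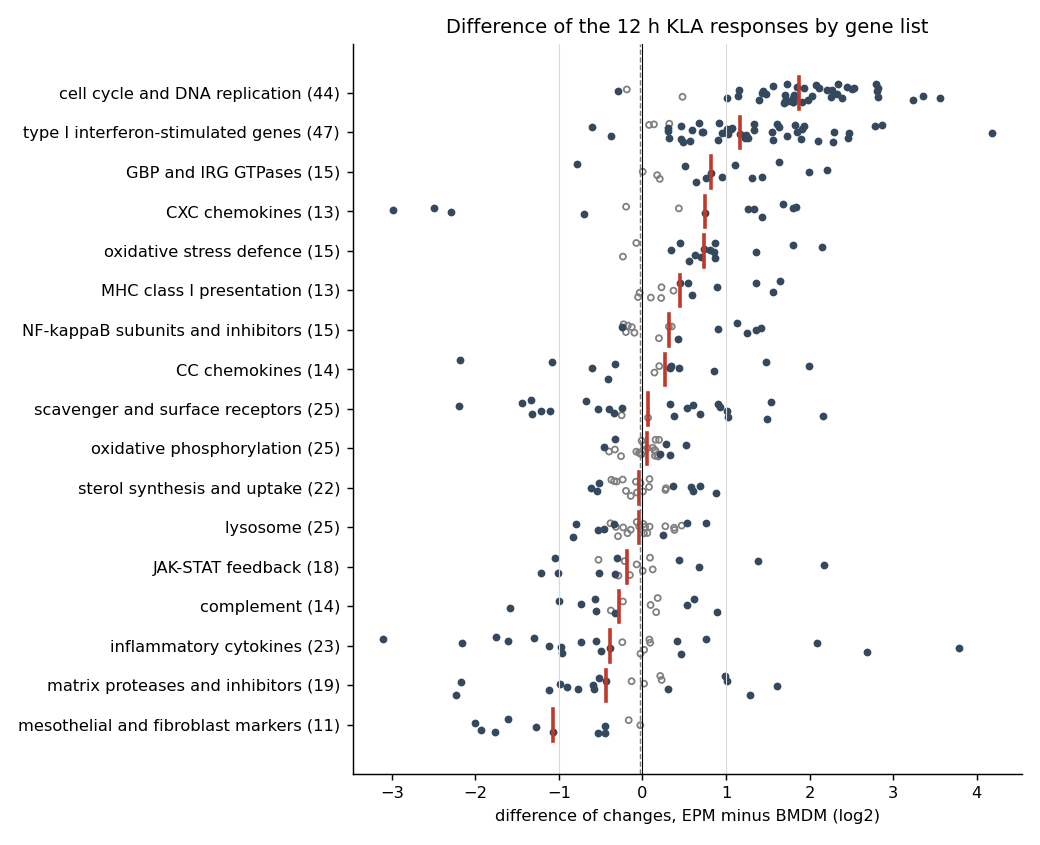
Difference of changes (log2, EPM minus BMDM) of every tested gene of 17 lists, with the number of genes in brackets. Filled points passed the test, open points did not, red bars are list medians, and the dashed line is the median over all genes of -0.03. Cell cycle genes (median 1.88) and interferon-stimulated genes (1.17) lie to the right, and mesothelial and fibroblast markers (-1.08) to the left.

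The cell cycle and DNA replication list stood apart because its genes moved in BMDM. Of 44 genes, 41 differed above 0 and 1 below 0, against 23.2% and 24.6% of all genes. All 41 differed by 2-fold or more, against 4.78% of all genes above 0. The median change was -0.10 in EPM and -2.10 in BMDM, and the median difference was 1.88. In BMDM 41 of the 44 fell 2-fold or more, where 9.04% of all genes did. In EPM 18 fell, each by less than 2-fold, where 34.3% of all genes fell. The median level of the list was 10.59 and 10.47 in control EPM, 10.47 and 10.52 in EPM with KLA, 12.09 and 12.12 in control BMDM, and 9.55 and 9.60 in BMDM with KLA. Control EPM were 2-fold or more lower for 36 genes, where 5.67% of all genes were. With KLA, EPM were 2-fold or more higher for 11 and lower for 2, against 7.18% and 5.26% of all genes. The median kept its sign under every alternative that was run, with 2 of the 44 called when array means were taken as samples. M-CSF and medium of the BMDM cultures cannot be told apart from the cell type in this result.

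Rrm2, the subunit of ribonucleotide reductase that limits the supply of deoxynucleotides, went from 8.73 and 8.52 to 9.10 and 8.95 in EPM and from 10.90 and 10.76 to 7.74 and 7.61 in BMDM. BMDM were above EPM before KLA and below EPM after it, with no overlap. It rose by 0.40 in EPM and fell 8.89-fold in BMDM, a difference of 3.56 (standard error 0.16, limma adjusted p = 4.89e-12). Ccna2, the cyclin of S phase, fell by 0.24 on the log2 scale in EPM and 12-fold in BMDM, a difference of 3.35.

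Plk1, the kinase that drives entry into mitosis, differed by 1.65-fold in control and by 4.29-fold with KLA, when EPM stood at 10.99 and 11.01 and BMDM at 8.96 and 8.85. The exceptions of the list were the licensing factor Cdt1 (-0.30), and Ccnd2 (-0.19) and Pcna (0.48), which did not pass the test. Ccnd2, a cyclin of G1, rose in both cell types, by 1.74 in EPM and 1.93 in BMDM, and was 3.39-fold lower in control EPM. Csf1r, the receptor of M-CSF, fell by 1.26 in BMDM and by 0.40 in EPM on the log2 scale. Ccnd2, Cdt1, Pcna and Csf1r were chosen after their values were seen.

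The cell cycle homology region is the motif TTTGAA through which the DREAM complex holds genes of mitosis silent in resting cells, and the promoter of Plk1 is shown as an example from the list. It lies at chr7:122159185-122159484 on the plus strand of GRCm38.p6, with 1 match, in capitals, that begins 31 bases after the RefSeq start.
Plk1: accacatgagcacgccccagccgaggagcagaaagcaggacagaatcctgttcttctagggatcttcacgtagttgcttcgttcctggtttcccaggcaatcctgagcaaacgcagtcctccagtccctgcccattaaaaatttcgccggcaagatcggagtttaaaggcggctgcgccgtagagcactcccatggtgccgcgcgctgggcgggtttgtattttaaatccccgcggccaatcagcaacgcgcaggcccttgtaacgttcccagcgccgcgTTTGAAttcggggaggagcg
The letters occur on either strand in 17.9% of all windows. A window was at hand for 32 of the 44 genes, so no share over the list is given.

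**Figure D5:**
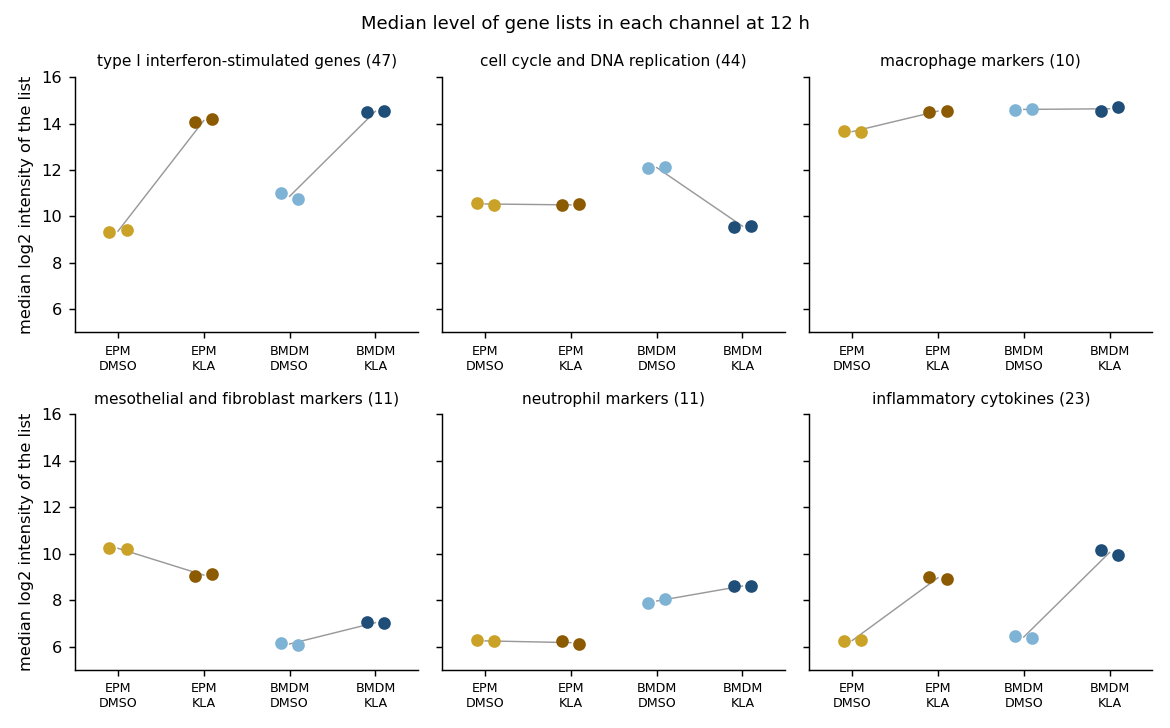
Median log2 intensity of 6 gene lists in each channel of the 4 conditions at 12 h, with grey lines from DMSO to KLA and the number of genes in brackets. Interferon-stimulated genes part in control and nearly meet with KLA, cell cycle genes drop in BMDM and stay level in EPM, and mesothelial and fibroblast markers are high in EPM alone.

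Some differences below 0 came from genes that were high in control EPM and fell there, such as 55 of the 135 genes with a higher control level alone. Cmbl, a hydrolase, stood at 10.50 and 10.73 in control EPM and 6.58 and 6.58 after KLA, and at 7.41 and 7.50 in control BMDM and 6.43 and 6.39 after KLA. The EPM values were far above those of BMDM at first and met them with KLA. It fell 16.4-fold in EPM and 2.06-fold in BMDM, a difference of -2.99 (limma adjusted p = 6.4e-13). Fabp4, the fatty acid-binding protein of fat cells and macrophages, fell 4.94-fold in EPM and changed by 0.09 in BMDM (limma adjusted p = 0.35), and remained higher in EPM at both levels. Mamdc2, a proteoglycan of the matrix, fell by 3.48 in EPM and by 0.55 in BMDM. Cxcl14, a chemokine of epithelia and fibroblasts, fell by 2.13 in EPM and rose by 0.86 in BMDM.

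Markers of mesothelium and fibroblasts also fell in EPM for the most part. Of 11, 9 differed below 0, where 24.6% of all genes did, and 2 did not pass the test, with a median of -1.08, a median control difference of 3.94 and a median KLA difference of 2.54. Their median level in control EPM was 10.26 and 10.21, and 9.05 and 9.11 with KLA, while the median change was -0.49 in EPM and 0.04 in BMDM. In EPM 8 of the 11 fell, where 34.3% of all genes did, and 3 fell 2-fold or more (4.6% of all genes). In BMDM 4 rose, where 28.6% of all genes did, and 2 rose 2-fold or more (6.26% of all genes). Upk3b, a mesothelial membrane protein, fell from 8.40 and 8.25 to 7.23 and 7.33 in EPM, and Col3a1, a collagen of fibroblasts, differed by -1.76, with other probes down to -0.10. In BMDM 5 to 6 of the 11 were well above background in each channel, while Krt18 was so in none. Without normalization between arrays the median of the list was -0.49, with 1 above 0 and 8 below, and with the mean of probes it was -0.53. The part of other peritoneal cells in the genes that fell in EPM was not tested.

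In the metabolism of arginine and itaconate, 3 of 9 genes differed above 0 and 3 below 0, against 23.2% and 24.6% of all genes, and 5 and 1 without normalization between arrays. Irg1, the enzyme that makes itaconate, stood at 8.31 and 8.20 in control EPM and 11.34 and 11.24 in control BMDM, and reached 16.96 and 16.75 in EPM and 16.69 and 17.00 in BMDM. The channels with KLA overlapped, and the controls differed 8.21-fold. The change was 389-fold in EPM and 47-fold in BMDM, a difference of 3.05 (standard error 0.12). Arg1, arginase 1, differed by -1.35 or lower on the log2 scale, a bound because it was not well above background in control BMDM. Slc7a2, a transporter of arginine, ended 10.4-fold higher in EPM. Nos2, the inducible nitric oxide synthase, was not well above background in either control and ended at 7.78 and 7.93 in EPM and 7.77 and 7.91 in BMDM, with KLA levels within 1.01-fold.

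Of 15 genes of oxidative stress defence, 13 differed above 0, where 23.2% of all genes did, and 2 did not pass the test, with a median of 0.74. Their median change was -0.08 in EPM and -0.94 in BMDM. Hmox1, heme oxygenase 1, went from 14.27 and 14.27 to 15.87 and 15.73 in EPM and from 15.19 and 15.48 to 14.52 and 14.91 in BMDM. It rose in EPM and fell in BMDM, so that the order of the cell types turned, and the difference was 2.15 (standard error 0.14). The subunits of the enzyme that makes glutathione, Gclm and Gclc, differed by 1.80 and 1.36.

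In 6 genes the change was 2-fold or more in opposite directions, 0.0346% of those tested. At 1.5-fold there were 56 (0.323%), with 22 that rose in EPM and fell in BMDM and 34 the reverse, and at any fold 792 (4.57%), 293 and 499. Fabp7, a fatty acid-binding protein of the nervous system, fell from 12.93 and 12.90 to 11.43 and 11.01 in EPM and rose from 10.36 and 10.09 to 11.42 and 11.11 in BMDM. The cell types met with KLA, and the difference was -2.73 (standard error 0.20). Rab19, a small GTPase of membrane traffic, went from 10.19 and 10.45 to 9.16 and 9.28 in EPM and from 9.73 and 9.68 to 10.94 and 10.96 in BMDM. Dgka, a kinase of diacylglycerol, fell by 1.05 in EPM and rose by 1.02 in BMDM, both just past 2-fold.

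Odz4, now Tenm4, a transmembrane teneurin, fell from 9.16 and 9.23 to 7.66 and 7.66 in EPM and rose to 7.80 and 7.82 in BMDM from a control that was not well above background. The difference was -3.18 or lower by its brightest probe, and its 4 probes ranged from -3.18 to 0.19. The opposite rises of Lmnb1, which codes for lamin B1, and Ddit4, an inhibitor of mTOR signalling, rested on 1 channel. For Lmnb1 the control values in EPM were 9.87 and 7.71, against 9.80 and 9.84 with KLA, so that the EPM change was -0.07 by Cy5 and 2.13 by Cy3. For Ddit4 they were 11.05 and 9.22, against 11.47 and 11.66, with EPM changes of 0.42 and 2.44. Without the second replicate of EPM DMSO 2 genes were left in opposition. The falls of both in BMDM did not depend on the channel, at -2.62 and -2.71 for Lmnb1 and -1.23 and -1.27 for Ddit4.

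In 4 further lists fewer genes passed the test of the difference than the 47.8% of all genes, a count that depended on the settings. Of 25 genes of oxidative phosphorylation, 4 differed above 0 and 2 below, with 3 and 5 of 25 lysosomal genes, 5 and 3 of 22 genes of sterol synthesis and 3 and 3 of 18 of glycolysis. With the dye as a block these counts were 6 and 4, 7 and 8, 7 and 8, and 6 and 5, so that most genes of the last 3 lists passed, as did 10026 of all genes. The medians lay between -0.05 and 0.06. Without normalization between arrays they were 0.22, 0.06, 0.29 and 0.29 in the same order, with 11 above 0 and 0 below among both the oxidative phosphorylation and the sterol synthesis genes. With the deposited values the lysosomal median was -0.21 and that of glycolysis -0.13. Sterol synthesis genes fell in both, 12 of 22 by 2-fold or more in EPM and 10 in BMDM, against 4.6% and 9.04% of all genes. Of 15 NF-kappaB subunits and inhibitors, 6 differed above 0, 1 below 0 and 8 did not pass, against 23.2% and 24.6% of all genes, with a median of 0.32. Without normalization between arrays 10 lay above 0 and 0 below, with a median of 0.60, and with the dye as a block 9 and 2. The inhibitor Nfkbia and the subunit Relb were the farthest, at 1.36 and 1.42, each lower in control EPM and within 2-fold with KLA. Ptgs2, cyclooxygenase 2, rose 13.5-fold in EPM and 9.73-fold in BMDM, a difference of 0.47 (standard error 0.14) that did not pass with an offset of 16 and turned to -0.47 with the scanner's processed signals. Ell2, an elongation factor of RNA polymerase II, differed by 1.02, with control EPM 3.5-fold lower.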

How the data were processed

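The authors deposited scanner intensity files of 12 two-colour arrays (24 channels), made per the labels with Agilent Feature Extraction 9.5.3.1, and their own normalized intensity values, used only as an alternative. Probes are placed on mm8 as in the files. Scanner values were background-corrected with normexp (offset 50), then loess within arrays (control spots dropped) and Aquantile between arrays were applied, and single-channel log2 values were taken. Of 41174 probes, 34850 carried 1 of 21597 symbols, and each symbol was represented by its brightest probe on average. Genes were tested if that probe passed the scanner's flag for signal well above background on both dyes in 1 or more of the 12 conditions. The model (R 4.3.3, limma 3.58.1, data.table version 1.17.8, statmod 1.5.0) fitted a coefficient to each condition, which left 12 residual degrees of freedom, and p-values were adjusted by Benjamini-Hochberg over all genes (threshold 0.05). It was tested on simulated data with independent noise in each channel, which cannot test for effects of array, slide or dye.

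For a condition without signal well above background, folds are bounds: each channel took its own value or the lowest signal flagged as well above background (5.44 to 6.16, log2), whichever was higher. Among the 1390 genes, 1188 differences were measured in all groups, 41 are lower bounds, and in 161 an undetected group could make the true difference smaller. Of 644 with several probes, 108 had a probe on the other side of 0. The offset compresses changes of dim genes, and the number of arrays limits the precision.

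The 35 gene lists (548 of 572 symbols tested), the classes and the comparison itself were chosen with earlier results of these data known. Named genes were the 6 largest differences in each direction with the same sign in both dyes, the 4 largest of each class and direction, up to 5 opposite genes in each direction, the 2 largest of each list and direction, and the array examples of the paper, and other list members were chosen after their values were seen. Cy5 minus Cy3 correlated across genes in all 66 pairs of arrays (0.27 to 0.63, and 0.39 to 0.63 among the 4 arrays compared), so dye pairs the channels, and a fit with the dye as a block was made. Alternatives changed the offset (16), the signal, the normalization between arrays, the filter, the choice of probe, the channels in the fit, arrays in place of channels, the thresholds (0.01, 1.5-fold) and the centring, used the deposited values, or left out each replicate. The values of 1 list member are not reported here.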

Additional observations from a re-analysis of the deposited data

Results flagged for a closer look

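The late response itself is flagged because the effect of KLA differed between EPM and BMDM by the term for the difference, in 8291 genes (limma, adjusted p under 0.05). The 6 genes that moved 2-fold or more in opposite directions are flagged for the same reason. Their differences of changes were 3.69 for Lmnb1, 2.68 for Ddit4, -2.07 for Dgka, -2.35 for Rab19, -2.73 for Fabp7 and -3.18 for Odz4. Both channels gave a difference above 0 for Lmnb1 and Ddit4, and the other 4 genes were below 0 in both channels. For Lmnb1 and Ddit4 the EPM control channels were 9.87 and 7.71, and 11.05 and 9.22, so that the rise in EPM came from the Cy3 channel.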

How the results depend on the processing

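The count of 8291 genes stayed within 1.5 times under the alternatives run except with arrays as samples, which gave 107, and ranged from 7403 to 7602 when a replicate was left out. The count of 1390 genes at 2-fold or more was 3304 with processed signals, which are not compressed by an offset, and 107 with arrays as samples (1379 to 1444 without a replicate). The 492 genes of the control class became 888 and 24 under these settings (474 to 508 without a replicate). The 420 genes of the KLA class became 1006 and 67, and 701 without normalization between arrays (420 to 442 without a replicate), where 83.3% lay above 0 in place of 49.3%, and 84% of the 2-fold genes did in place of 59.6%. The 6 opposite genes were 11 with an offset of 16, 36 with processed signals, 56 at 1.5-fold, 2 with arrays as samples and 2 to 8 without a replicate, with 2 when the second replicate of EPM DMSO was left out. With the replicate block of dye the count was 10026, the 2-fold and class counts were 1390, 492 and 420, and none of the 97 named genes changed its call. Slide is cell type and array is condition, so no block for them could be fitted.

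Of the 97 named genes, 82 no longer passed with arrays as samples. Cd69 turned to 0.60 and Ptgs2 to -0.47 with processed signals, S100a9 (-1.11) lost its call under 7 other alternatives, Ptgs2 with an offset of 16 and without the second BMDM KLA replicate, and Nos2 passed at 0.25 without normalization between arrays. The causes were not tested.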

Other observations

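The 10 B cell markers had median levels of 6.23 to 6.56 on the log2 scale in the 8 channels, with 5 to 7 of them well above background, and summed to intensities of 1512 to 2752 in EPM and 2191 to 4241 in BMDM. In control 1 of the 10 was 2-fold or more lower in EPM and 1 higher, against 5.67% and 6.11% of all genes. The lower one was Cd79b, a subunit of the B cell receptor, at 11.60 and 11.68 in BMDM DMSO, 10.00 and 10.01 in BMDM KLA, 6.92 and 7.15 in EPM DMSO and 6.55 and 6.94 in EPM KLA. The higher one was Cd22, a surface lectin of B cells, at 10.98 and 10.99 in EPM DMSO and 8.34 and 8.54 in BMDM DMSO. S100a9, a calcium-binding protein of neutrophils, stood at 12.86 to 14.18 in BMDM and 6.74 to 7.49 in EPM. Gata6, a transcription factor of resident peritoneal macrophages, fell from 10.96 and 10.88 to 9.64 and 9.73 in EPM, and in BMDM only 1 of 4 channels was well above background. It was 1 of 6 such markers tested, with a median change of -0.22 in EPM. Of the 6, 1 rose and 1 fell 2-fold or more in EPM, against 4.81% and 4.6% of all genes. In control 3 were 2-fold or more higher in EPM and 1 lower, against 6.11% and 5.67% of all genes.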
